A study of Homo sapiens with 12 samples.

Results

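The genes described here are 10 feedback inhibitors of the RAS-ERK pathway: the MAP kinase phosphatase genes DUSP1, DUSP2, DUSP4, DUSP5 and DUSP6, the Sprouty genes SPRY1, SPRY2 and SPRY4, and the Sprouty-related genes SPRED1 and SPRED2. They were taken by name from a table of raw read counts for 55882 gene symbols. All 10 were found, and all 10 passed the filter on low counts that left 14799 genes for testing. The table holds RNA-seq counts of 12 libraries of T47D, an established line of estrogen receptor positive luminal breast cancer cells, with 3 libraries in each of 4 groups. The groups were T47D-HOXB13 cells, which express the homeobox transcription factor HOXB13 ectopically, given estradiol, the same cells given vehicle, WT T47D cells given estradiol, and WT T47D cells given vehicle. The WT cells are called control cells here. Estradiol was used at 2 nM and the vehicle was ethanol, and RNA was taken 24 h later. Every group had first been kept for 72 h in phenol-free medium with 10% charcoal-stripped serum. The labels do not say how HOXB13 was introduced, whether the HOXB13 cells are a pool or a clone, or whether the control cells carry an empty vector. In GENCODE the genes lie on chromosomes 5 (DUSP1 and SPRY4), 2 (DUSP2 and SPRED2), 8 (DUSP4), 10 (DUSP5), 12 (DUSP6), 4 (SPRY1), 13 (SPRY2) and 15 (SPRED1).

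Growth factor receptors switch on RAS, which activates the kinases RAF, MEK and ERK in turn. Active ERK induces genes that restrain the pathway: dual-specificity phosphatases remove phosphate from ERK and its relatives, Sprouty proteins act between receptor and RAS or RAF, and SPRED proteins bring the RAS-inactivating protein neurofibromin to the membrane. The mRNAs of these inhibitors are often read as a record of recent ERK activity, and in luminal breast cancer cells estrogen receptor signalling and growth factor signalling are known to influence each other.

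In both kinds of cell, DUSP5 and SPRY1 were lower and SPRED1 was higher with estradiol. DUSP2 passed the test in control cells, where it was higher with estradiol, and SPRY4 passed it in HOXB13 cells, where it was also higher. SPRY4 passed the filter on low counts only through its estradiol libraries. DUSP6, a gene often used as an ERK readout, did not pass the test in any comparison, and none of the 10 genes passed a test of HOXB13 against control cells. In numbers, 2 of the 10 genes were called higher and 2 lower with estradiol in HOXB13 cells, beside 7.22% of all tested genes called higher and 6.38% called lower. In control cells 2 were called higher and 2 lower, beside 8.65% and 6.72% of all genes. A call here is an adjusted p under 0.05 by edgeR's quasi-likelihood test, and with 10 genes these counts show only which members were called.

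The libraries held between 17679824 and 21385996 counts. HOXB13 had 110, 92 and 97 counts in the HOXB13 libraries with estradiol and 112, 106 and 108 in those with vehicle, against 0, 0 and 0 counts in the control libraries with estradiol and 2, 0 and 1 in those with vehicle. The estrogen receptor target GREB1 was higher with estradiol by 1.28 log2 units in HOXB13 cells and by 1.75 in control cells (adjusted p 0.00697 and 0.000741, edgeR's quasi-likelihood test). Of the luminal markers, KRT8 was at 6653 to 11673 CPM (counts scaled to a common library size) over the 12 libraries and ESR1 at 105 to 215 CPM, while the leukocyte gene PTPRC did not exceed 0.211 CPM and the endothelial gene CDH5 had 0 counts in every library. The 4 libraries numbered 2, which come 1 from each group, stood apart from the other 8 on the second principal component (17.8% of the variance), and results that depend on them are given with and without them. In bulk RNA, fewer cells with a transcript and less transcript per cell cannot be told apart, and the labels do not say whether libraries came from separate cultures.

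Start-site sequences of 3 members are shown because they are the 3 whose windows of 250 bases before to 50 bases after an annotated start held a single arm of an estrogen response element or a full cyclic AMP response element, a motif well known from the DUSP1 promoter. Capitals mark matches, on either strand, to TGACGTCA (the cyclic AMP response element), TGACG (a single arm of that element) and AGGTCA (a single arm of the estrogen response element). Sequences are from RefSeq on GRCh38.p14, written 5′ to 3′ along the gene, and all 3 genes lie on the minus strand.
DUSP1, chr5:172771146-172771445: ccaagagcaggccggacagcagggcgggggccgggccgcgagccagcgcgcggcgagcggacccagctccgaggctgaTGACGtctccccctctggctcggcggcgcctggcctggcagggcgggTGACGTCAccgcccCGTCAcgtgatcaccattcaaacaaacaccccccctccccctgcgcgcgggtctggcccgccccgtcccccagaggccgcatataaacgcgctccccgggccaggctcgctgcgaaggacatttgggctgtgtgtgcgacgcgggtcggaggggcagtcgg
DUSP2, chr2:96145391-96145690: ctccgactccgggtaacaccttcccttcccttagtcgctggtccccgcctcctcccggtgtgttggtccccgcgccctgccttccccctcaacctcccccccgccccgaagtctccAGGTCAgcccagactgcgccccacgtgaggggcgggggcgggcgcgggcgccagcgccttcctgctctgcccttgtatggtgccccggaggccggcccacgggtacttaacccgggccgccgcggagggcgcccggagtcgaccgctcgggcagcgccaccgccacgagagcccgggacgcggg
SPRY4, chr5:142324198-142324497: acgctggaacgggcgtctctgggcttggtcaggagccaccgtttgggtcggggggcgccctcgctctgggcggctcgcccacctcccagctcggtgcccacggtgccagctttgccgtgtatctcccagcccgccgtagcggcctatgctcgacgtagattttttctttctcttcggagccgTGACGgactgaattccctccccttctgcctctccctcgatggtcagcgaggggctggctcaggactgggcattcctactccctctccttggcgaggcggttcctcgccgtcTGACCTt
The DUSP1 window held TGACGTCA at position −125 from the start, an element found in 1.85% of 35116 windows of the same length, and 2 further TGACG matches outside it. The DUSP2 window held AGGTCA at position −134 and the SPRY4 window held it on the opposite strand at position 44. That motif occurs in 13.8% of windows, and TGACG, which the SPRY4 window also held, in 24.6%. The palindromic estrogen response element GGTCANNNTGACC, present in 0.057% of windows, was in none of the 12 windows of the 8 members used here. The 12 windows also held no CArG box (1.29% of windows) and neither of the HOXB13 motifs CAATAAA and TCGTAAA (4% and 0.541%). The AP-1 motif TGANTCA, found in 7.71% of windows, occurred in 1 of the SPRED2 windows. These matches describe the printed letters and are not evidence of binding.

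Of the phosphatase genes, DUSP5 was called lower with estradiol in both kinds of cell. It encodes a nuclear phosphatase that acts on ERK and holds it in the nucleus. Its level was 25.2, 18.4 and 23.0 CPM in HOXB13 cells with estradiol, against 41.9, 37.2 and 41.2 CPM with vehicle. In control cells it was 22.4, 19.3 and 21.3 CPM with estradiol, against 38.2, 33.4 and 38.6 CPM with vehicle. All 6 estradiol libraries lay below all 6 vehicle libraries. The log2 fold change was −0.85 in HOXB13 cells (95% interval −1.13 to −0.58, adjusted p 0.000603) and −0.81 in control cells (−1.08 to −0.53, adjusted p 0.000701; edgeR's quasi-likelihood test with Benjamini-Hochberg adjustment). The estradiol level was thus 0.554 times the vehicle level in HOXB13 cells and 0.572 times in control cells. The library numbered 2 was the lowest of its group in all 4 groups, and the treatments did not overlap even so. A pseudogene, DUSP5P1, is counted as a row of its own.

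DUSP2 encodes a nuclear phosphatase of ERK and other MAP kinases that is best known from immune cells. It was scarce in these cells, at 1.81, 2.19 and 2.60 CPM in HOXB13 cells with estradiol and 0.596, 2.17 and 0.366 CPM with vehicle. In control cells it was at 2.59, 1.96 and 2.33 CPM with estradiol and 0.501, 0.575 and 0.679 CPM with vehicle. The control groups did not overlap, whereas vehicle library 2 of the HOXB13 cells, with 41 counts beside 12 and 7 in the other two, lay within the range of the estradiol libraries. DUSP2 was 3.89-fold higher with estradiol in control cells (log2 fold change 1.96 ± 0.50 SE, edgeR's adjusted p 0.0159), a call that missed the threshold when control vehicle library 1 was left out (adjusted p 0.0658). In HOXB13 cells the log2 fold change was 1.08 (95% interval 0.06 to 2.09) with adjusted p 0.163. With the replicate number as a block the adjusted p was 0.0472, and without vehicle library 2 of the HOXB13 cells the log2 fold change was 2.18 with adjusted p 0.00278.

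DUSP1 encodes an inducible nuclear phosphatase that acts on p38 and JNK as well as ERK. Its levels were 7.49, 10.4 and 8.67 CPM in HOXB13 cells with estradiol, against 11.02, 13.3 and 13.7 CPM with vehicle. Control cells had 10.4, 16.7 and 10.1 CPM with estradiol, against 18.1, 35.5 and 14.0 CPM with vehicle. The groups did not overlap in HOXB13 cells and did in control cells, where library 2 was the highest in both treatments. The log2 fold change was −0.51 in HOXB13 cells (adjusted p 0.313) and −0.86 in control cells (95% interval −1.49 to −0.24, adjusted p 0.0612), so DUSP1 missed the threshold in both by edgeR's test. It was lower with estradiol in each of the 6 pairs of equally numbered libraries, and with the replicate block it passed in both (adjusted p 0.0332 in HOXB13 cells and 0.000865 in control cells). Without all 4 libraries numbered 2 the values were −0.60 (adjusted p 0.0219) and −0.64 (adjusted p 0.0105). In control cells the fold change was −0.37 (adjusted p 0.271) without vehicle library 2, −1.13 (0.0297) without estradiol library 2 and −1.12 (0.0194) without vehicle library 3.

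The immediate early gene FOS, singled out after its values were seen, was highest in library 2 of each control treatment, as DUSP1 was. The same held for FOSB, EGR1 and JUNB, but not for JUN, IER2 and EGR3. In HOXB13 cells with estradiol, library 2 was the highest for DUSP1 and the lowest for FOS. FOS ranged between 0.573 and 2.92 CPM over the 6 HOXB13 libraries. In control cells it was at 0.969 to 1.17 CPM in estradiol libraries 1 and 3 and at 8.46 CPM in library 2, and at 0.852 to 1.04 CPM in vehicle libraries 1 and 3 and at 19.5 CPM in library 2. What share of the DUSP1 differences goes with these FOS levels was not tested. DUSP1 and DUSP6 each overlap an antisense gene in GENCODE (AC022217.3 and AC024909.2), and with the strand setting not stated their reads cannot be told from antisense ones.

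DUSP6 encodes a cytoplasmic phosphatase that is selective for ERK, and DUSP4 a nuclear, inducible one. DUSP6 was at 7.54, 4.69 and 8.02 CPM in HOXB13 cells with estradiol and 7.25, 3.43 and 6.49 CPM with vehicle, and at 4.88, 5.62 and 6.50 CPM in control cells with estradiol and 4.66, 4.17 and 6.32 CPM with vehicle. The groups overlapped in both kinds of cell. Its log2 fold change was 0.24 in HOXB13 cells (95% interval −0.36 to 0.83, adjusted p 0.654) and 0.17 in control cells (−0.43 to 0.77, adjusted p 0.749; edgeR). DUSP4 was at 38.1, 15.7 and 30.9 CPM with estradiol and 26.7, 8.93 and 22.3 CPM with vehicle in HOXB13 cells, and at 19.0, 25.2 and 28.9 CPM with estradiol and 10.2, 14.3 and 24.5 CPM with vehicle in control cells. Those groups overlapped too, and the spread between libraries was wide, with a coefficient of variation of 20.4% to 47.9% per group. The DUSP4 log2 fold changes of 0.55 in HOXB13 cells (−0.29 to 1.38) and 0.58 in control cells (−0.26 to 1.42) had adjusted p of 0.422 and 0.369. DUSP4 and DUSP6 were each higher with estradiol in all 6 pairs of equally numbered libraries, and neither passed with the replicate block. Every member but SPRY2, which was higher in 5 of the 6, kept a single direction over these pairs. The share of all genes that do so was not counted.

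**Figure D1:**
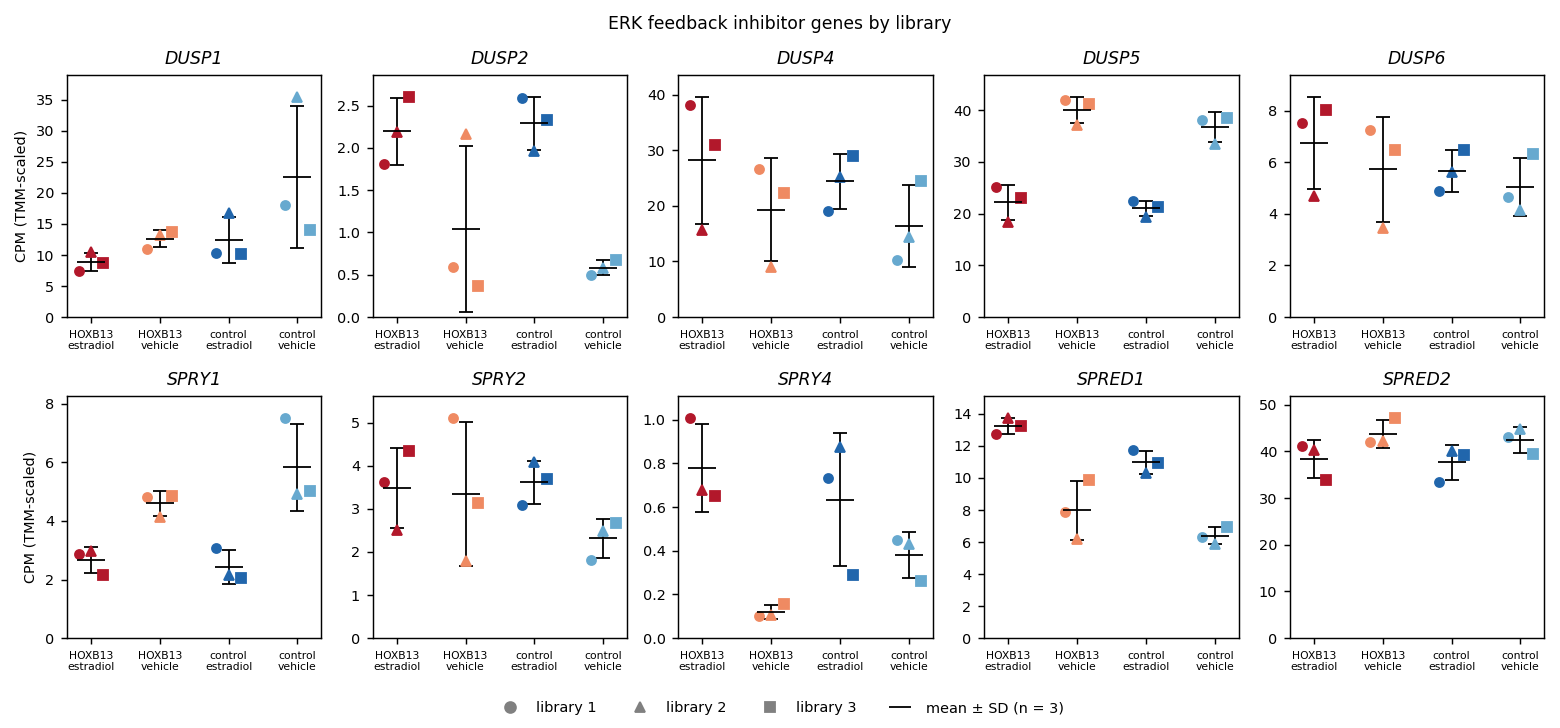
Level of each of the 10 genes in CPM scaled by TMM factors, by group, with a point for each library, the shape giving the library number, and the mean ± SD of 3 libraries as bars. The estradiol libraries of DUSP5 lie at 18.4 to 25.2 CPM, below all vehicle libraries at 33.4 to 41.9 CPM, while the DUSP6 groups overlap.

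The Sprouty genes differed from each other. SPRY1, which encodes an inhibitor of receptor tyrosine kinase signalling, was at 2.87, 2.97 and 2.17 CPM in HOXB13 cells with estradiol, against 4.81, 4.12 and 4.86 CPM with vehicle. In control cells it was at 3.08, 2.17 and 2.04 CPM with estradiol, against 7.52, 4.93 and 5.01 CPM with vehicle. All 6 estradiol libraries were below all 6 vehicle libraries. SPRY1 fell to 0.581 times its vehicle level in HOXB13 cells (log2 fold change −0.78 ± 0.24 SE, adjusted p 0.0451) and to 0.418 times in control cells (−1.26 ± 0.24, adjusted p 0.00249; edgeR). The call in HOXB13 cells was close to the threshold: leaving out a single library gave adjusted p of 0.0519 to 0.166 for 9 of the 12 libraries, all but control estradiol library 1 and control vehicle libraries 1 and 2, while the log2 fold change stayed between −0.87 and −0.65.

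SPRY4, an inhibitor of the same family, rested on few counts. It had 19, 13 and 12 counts in HOXB13 cells with estradiol, against 2, 2 and 3 counts with vehicle, which is 1.01, 0.677 and 0.650 CPM against 0.0993, 0.106 and 0.157 CPM. Control cells had 15, 17 and 6 counts with estradiol, against 9, 9 and 5 with vehicle. The HOXB13 groups did not overlap and the control groups overlapped. No vehicle library reached 10 counts, the minimum of the filter, so only estradiol libraries brought SPRY4 into the test. In HOXB13 cells edgeR gave a log2 fold change of 2.63 ± 0.59 (95% interval 1.36 to 3.90, adjusted p 0.00849), and the ratio of summed counts, 44 against 7, was 6.48 with an exact 95% interval of 2.89 to 17.0 that covers counting error only. In control cells the log2 fold change was 0.71 (−0.36 to 1.79, adjusted p 0.389). The SPRY4 locus overlaps the antisense gene SPRY4-AS1 in GENCODE, so without a stated strand setting its few counts could include antisense reads.

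SPRY2, the family member most studied as a regulator of epidermal growth factor receptor signalling, did not pass. It was at 3.61, 2.50 and 4.33 CPM in HOXB13 cells with estradiol and 5.11, 1.80 and 3.14 CPM with vehicle, and at 3.08, 4.08 and 3.68 CPM in control cells with estradiol and 1.81, 2.49 and 2.66 CPM with vehicle. The control groups did not overlap and the HOXB13 groups did. Its log2 fold change was 0.05 in HOXB13 cells (95% interval −0.65 to 0.76, adjusted p 0.947) and 0.64 in control cells (−0.08 to 1.36, adjusted p 0.236; edgeR).

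SPRED1 and SPRED2 encode partners of neurofibromin, and loss of SPRED1 causes Legius syndrome in people. SPRED1 was at 12.7, 13.8 and 13.3 CPM in HOXB13 cells with estradiol, against 7.89, 6.18 and 9.89 CPM with vehicle. Control cells had 11.7, 10.3 and 10.9 CPM with estradiol, against 6.32, 5.89 and 6.94 CPM with vehicle. All 6 estradiol libraries lay above all 6 vehicle libraries. SPRED1 was 1.66-fold higher with estradiol in HOXB13 cells (log2 fold change 0.73 ± 0.16, adjusted p 0.00867) and 1.72-fold higher in control cells (0.78 ± 0.17, adjusted p 0.00533; edgeR). SPRED2 was at 33.8 to 41.3 CPM in HOXB13 cells with estradiol and 41.9 to 47.2 CPM with vehicle, and at 33.5 to 40.1 CPM in control cells with estradiol and 39.5 to 44.7 CPM with vehicle. Its log2 fold changes of −0.19 in HOXB13 cells (95% interval −0.44 to 0.06) and −0.17 in control cells (−0.42 to 0.07) did not pass (adjusted p 0.339 and 0.361), although SPRED2 was lower with estradiol in all 6 pairs. The coefficient of variation of SPRED2 within groups was 6.37% to 10.5%, and that of SPRED1 3.81% to 23.2%.

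With the replicate number added to the fit as a block, 6 of the 10 genes were called in HOXB13 cells (3 higher beside 15.5% of all genes, 3 lower beside 15%). In control cells 5 were called (2 higher beside 17.5%, 3 lower beside 16.5%), and all 5 were also called in HOXB13 cells. Without the block, DUSP5, SPRY1 and SPRED1 were the 3 called in both kinds of cell. The share of all genes called in both was not counted, so these overlaps show only which members were called. The median log2 fold change of the 10 was 0.14 in HOXB13 cells and 0.37 in control cells, beside −0.01 for all tested genes in each.

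**Figure D2:**
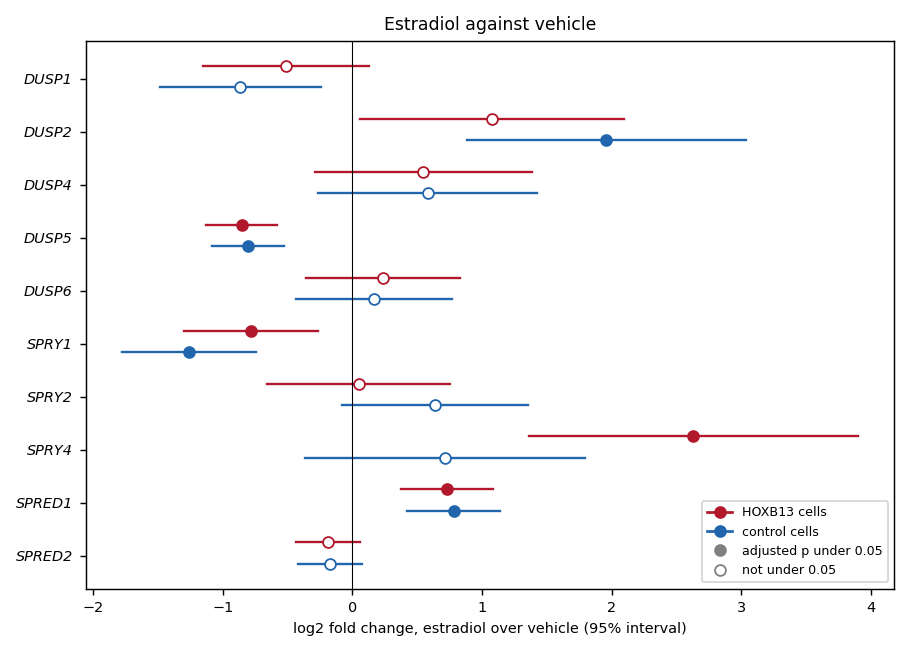
Log2 fold change of estradiol over vehicle with its 95% interval for each gene, in HOXB13 cells (red, upper) and control cells (blue, lower), filled where the adjusted p is under 0.05. DUSP5 and SPRY1 lie left of 0 and SPRED1 right of 0 in both kinds of cell, and SPRY4 in HOXB13 cells is the farthest from 0, at 2.63.

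HOXB13 against control cells gave no call among the 10 genes. With estradiol, 0 of 10 were called, beside 0.0135% of all genes higher and 0% lower, and 0 of 10 had an unadjusted p under 0.05 (489 of all genes did). The log2 fold changes ran from −0.48 for DUSP1 (95% interval −1.13 to 0.16) to 0.30 for SPRY4 (−0.71 to 1.31), all with adjusted p 0.999 by edgeR. Intervals were narrow for DUSP5 (0.08, −0.20 to 0.36), SPRED2 (0.03, −0.22 to 0.28) and SPRED1 (0.27, −0.08 to 0.62), and wider for the rest. The replicate block also called 0 of the 10, beside 0.142% of all genes higher and 0.25% lower.

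With vehicle, 0 of 10 were called again, beside 0.0203% of all genes higher and 0% lower, or 0.189% and 0.216% with the replicate block, which called 0 of the 10 too. DUSP1 and SPRY4 had an unadjusted p under 0.05 (559 of all genes did). DUSP1 averaged 12.6 ± 1.42 CPM in HOXB13 cells and 22.5 ± 11.4 CPM in control cells (SD, n = 3 each), a log2 fold change of −0.84 (95% interval −1.46 to −0.21, adjusted p 1.0 by edgeR). No HOXB13 library reached the lowest control library, but the difference was −0.38 without the libraries numbered 2 (unadjusted p 0.0446, adjusted p 0.608). With the replicate block the DUSP1 difference was −0.76 (unadjusted p 0.000324, adjusted p 0.0657, edgeR). SPRY4 averaged 0.121 ± 0.0316 CPM in HOXB13 cells and 0.381 ± 0.105 CPM in control cells, also without overlap, a log2 fold change of −1.62 (−2.98 to −0.26, adjusted p 1.0). The SPRY4 sums were 7 counts in HOXB13 cells and 23 in control cells. Without the libraries numbered 2 the SPRY4 log2 fold change was −1.44, with an unadjusted p of 0.141 by edgeR. Log2 differences of the other 8 genes ran from −0.34 for SPRY1 to 0.82 for DUSP2, and that of DUSP2 was −0.28 without the libraries numbered 2. Without those libraries SPRY2 moved from 0.53 to 0.89 (unadjusted p 0.0105, adjusted p 0.394, edgeR). SPRED1 moved from 0.32 to 0.42 (unadjusted p 0.0357, adjusted p 0.576, edgeR). SPRED1 was higher in HOXB13 than in control cells in all 6 pairs of equally numbered libraries over both treatments, and DUSP1 lower in all 6. Neither passed the test in either treatment. Each of the other 8 genes went both ways over these pairs, and the share of all genes that keep a single direction was not counted.

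The estradiol response itself was compared between the cells by the interaction term. No member was called, nor was any gene of the table, with the replicate block or without it, so 0% of genes were called in either direction, while 219 genes had an unadjusted p under 0.05 without the block. SPRY4 was the member with the lowest p. Its response was larger in HOXB13 cells by 1.92 log2 units (95% interval 0.22 to 3.61), with an unadjusted p of 0.0292 and an adjusted p of 1.0 by edgeR. Without the libraries numbered 2 the SPRY4 difference was 2.14 log2 units, with an unadjusted p of 0.0817 by edgeR. SPRY4 passing in HOXB13 cells and DUSP2 in control cells is therefore no shown difference between the cells, and for DUSP2 the interaction was −0.88 (−2.37 to 0.60) over all libraries and 0.13 without those numbered 2. The other intervals were −0.44 to 0.34 for DUSP5, −0.55 to 0.45 for SPRED1, −0.36 to 0.34 for SPRED2 and −0.25 to 1.20 for SPRY1, and wider than 1.5 log2 units for DUSP1, DUSP4, DUSP6 and SPRY2.

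**Figure D3:**
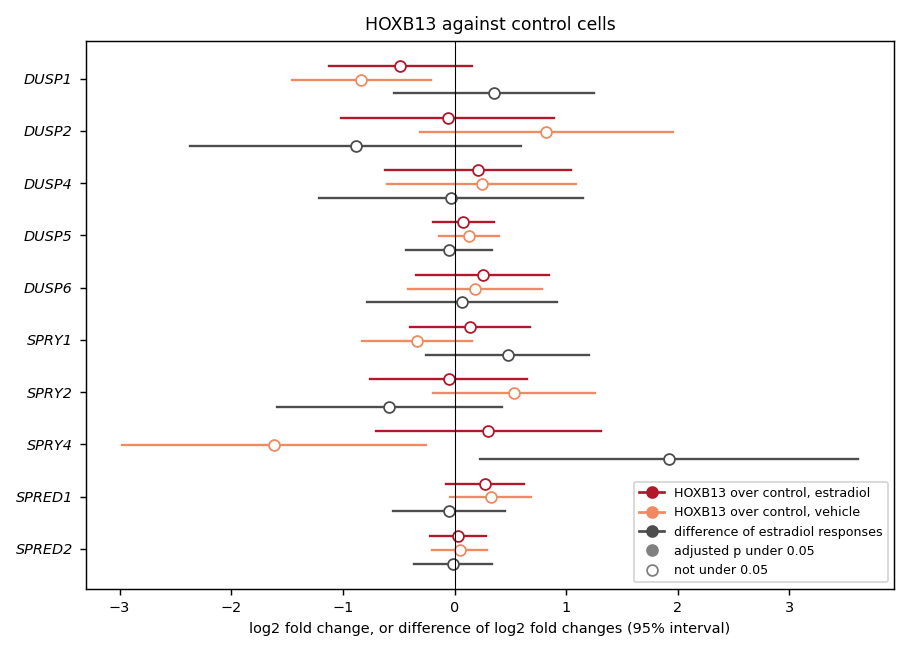
Log2 fold change of HOXB13 over control cells with estradiol (red) and with vehicle (orange), and the difference of the estradiol responses between HOXB13 and control cells (grey), each with its 95% interval. All symbols are open because no adjusted p was under 0.05, and SPRY4 and DUSP2 have the widest intervals.

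The order of the 4 group means differed from gene to gene. For DUSP5 both estradiol groups (22.2 ± 3.43 CPM in HOXB13 cells and 21.0 ± 1.53 CPM in control cells) stood below both vehicle groups (40.1 ± 2.55 CPM in HOXB13 cells and 36.7 ± 2.88 CPM in control cells), and groups with the same treatment overlapped. SPRED1 had the opposite order, with 13.3 ± 0.505 CPM in HOXB13 cells with estradiol, 10.98 ± 0.704 CPM in control cells with estradiol, 7.99 ± 1.85 CPM in HOXB13 cells with vehicle and 6.38 ± 0.529 CPM in control cells with vehicle, and its 2 vehicle groups overlapped while the 2 estradiol groups did not. SPRY1 had 2.67 ± 0.438 CPM in HOXB13 cells and 2.43 ± 0.567 CPM in control cells with estradiol, which overlapped, then 4.60 ± 0.416 CPM in HOXB13 cells and 5.82 ± 1.47 CPM in control cells with vehicle, which did not. For DUSP2, DUSP4, DUSP6, SPRY2 and SPRED2 every pair of neighbours in the order overlapped. DUSP1 was highest in control cells with vehicle, and its other 3 groups overlapped each other in turn.

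Levels can be compared between genes only per length, here as CPM per kilobase of merged GENCODE exons, which are not the models used for counting. On that scale DUSP5 was the highest of the 10 in every group. With estradiol it was at 8.49 in HOXB13 cells and 8.03 in control cells, followed by SPRED2 at 7.46 and 7.30. With vehicle DUSP5 was at 15.3 in HOXB13 cells, followed by SPRED2 at 8.49. In control cells with vehicle DUSP5 was at 14.0, followed by DUSP1 at 11.2 ± 5.67 and SPRED2 at 8.23 ± 0.524 (SD). That DUSP1 mean includes library 2, at 35.5 CPM beside 14.0 and 18.1 CPM in the others, and the rank without it was not computed. SPRY4 was the lowest in every group, from 0.119 in HOXB13 cells with estradiol to 0.0184 in HOXB13 cells with vehicle. DUSP6, at 1.09 to 1.46, was of similar level to SPRY2, at 0.763 to 1.19, and SPRED1, at 0.773 to 1.61.

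**Figure D4:**
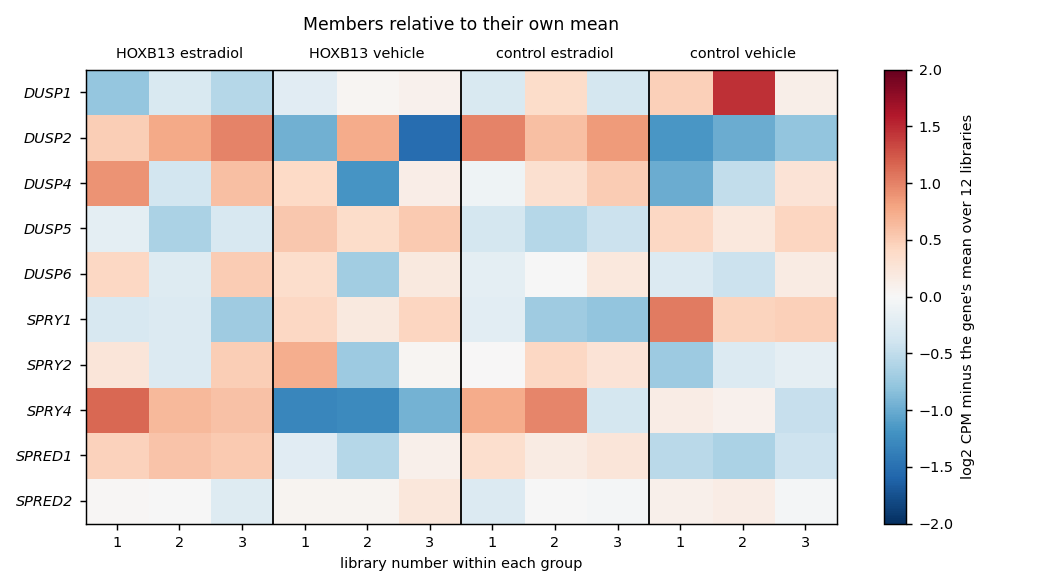
Log2 CPM of each gene in each of the 12 libraries minus the gene's own mean over all 12, red above and blue below that mean, with libraries in columns by group. The dark cell of DUSP1 is control vehicle library 2 (35.5 CPM), and the pale row of SPRED2 has the least spread.

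Over the 12 libraries, the genes whose centred log2 CPM pattern differed least from that of SPRY1 were SLC22A23, FN1 and ENC1, with a root mean square difference of 0.16, 0.16 and 0.17 log2 units beside a spread of 0.56 for SPRY1 itself. FN1, the fibronectin gene, was at 67.3 ± 5.36 CPM in HOXB13 cells with estradiol and 118 ± 6.08 CPM with vehicle. For SPRY4 the nearest were LRRC3, H19 and TEX30 (0.37, 0.39 and 0.43 beside 0.82), and for DUSP2 ESAM, FZD9 and CNIH2 (0.43, 0.44 and 0.45 beside 0.94). These likenesses are a description over 12101 candidate genes that share the same libraries.

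Most of the other tested members of the same families were lower with estradiol. DUSP8, DUSP10, DUSP16 and SPRY3, 4 of the 5 tested from a list of 7 further phosphatase, Sprouty and SPRED genes, passed the test as lower in both kinds of cell, beside 6.38% of all genes in HOXB13 cells and 6.72% in control cells. DUSP8 and DUSP16 act mainly on JNK, and DUSP10 on p38 and JNK. DUSP16 was at 38.7 ± 2.44 CPM with estradiol and 57.0 ± 2.77 CPM with vehicle in HOXB13 cells, and at 34.3 ± 4.37 and 50.9 ± 6.43 CPM in control cells (log2 fold changes −0.56 and −0.57, adjusted p 0.00754 and 0.00587, edgeR). DUSP10 and SPRY3 changed by −0.89 and −1.03 in HOXB13 cells and by −0.78 and −0.89 in control cells. The list's median log2 fold change was −0.57 in each, beside −0.01 for all genes. DUSP7, which dephosphorylates ERK, had positive values and was not called in either (0.34 and 0.50, adjusted p 0.405 and 0.177), though the replicate block called it higher in control cells (adjusted p 0.045).

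Of 15 other brakes on RAS and receptor signalling, DAB2IP, which encodes a RAS GTPase activating protein, was lower with estradiol in both kinds of cell (−0.35 in HOXB13 cells and −0.38 in control cells, adjusted p 0.044 and 0.0299, edgeR), and RASAL1, of the same class, was higher in control cells (0.99, adjusted p 0.0365). In the core of the cascade, 1 of 21 tested genes was called in HOXB13 cells, where 7.22% of all genes were called higher and 6.38% lower. In control cells 2 of the 21 were called, beside 8.65% of all genes higher and 6.72% lower. RASGRP1, a RAS guanine nucleotide exchange factor, was at 3.86 ± 0.581 CPM with estradiol and 0.538 ± 0.248 CPM with vehicle in HOXB13 cells, and at 4.02 ± 0.319 and 0.604 ± 0.156 CPM in control cells (log2 fold changes 2.84 and 2.73, adjusted p 7.57e-05 and 6.22e-05, edgeR). GAB1, a receptor adaptor, was lower in control cells (−0.48, adjusted p 0.0181). Of 11 p38 and JNK genes, MAPK9 was higher in both (0.61 and 0.51) and MAPK10 lower in control cells (−0.81).

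Among 18 tested genes known as transcriptional output of ERK, 5 were higher and 1 lower with estradiol in HOXB13 cells, beside 7.22% and 6.38% of all genes. In control cells 4 were higher and 1 lower, beside 8.65% and 6.72% of all genes. MYC was at 36.4 ± 6.85 CPM with estradiol and 10.1 ± 3.06 CPM with vehicle in HOXB13 cells, and at 34.8 ± 5.51 and 8.69 ± 0.295 CPM in control cells (log2 fold changes 1.85 and 2.00, adjusted p 7.09e-05 and 2.53e-05, edgeR). EGR3, CCND1 and IER3 were also higher in both (4.41, 0.63 and 0.42 in HOXB13 cells, 3.39, 0.81 and 0.73 in control cells), and ETV4 in HOXB13 cells (2.09, adjusted p 0.0452). EGR3, MYC and CCND1 are also known estrogen receptor targets, and EGR3 had at most 0.287 CPM (6 counts) in any vehicle library. EGR3 thus passed the filter on low counts only through its estradiol libraries, and its fold changes rest on few vehicle counts. JUNB was lower in both, with a log2 fold change of −0.76 in each. FOS was not called in either (adjusted p 0.83 and 0.552).

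Upstream of RAS, the receptor tyrosine kinase genes FGFR4, ERBB2 and ERBB3 were lower with estradiol in both kinds of cell (−1.16, −1.15 and −0.67 in HOXB13 cells, −1.38, −1.24 and −0.82 in control cells), FGFR2 was lower in control cells (−0.49) and RET was higher in both (1.11 and 1.25), out of 11 tested. ERBB2 was at 314 ± 48.8 CPM with estradiol and 698 ± 78.6 CPM with vehicle in HOXB13 cells, and at 320 ± 12.5 and 755 ± 75.4 CPM in control cells (adjusted p 5.68e-05 and 2.07e-05, edgeR). Of 8 tested ligand genes, AREG, the amphiregulin gene, was higher in both (1.81 and 1.67), TGFA in HOXB13 cells (0.64), HBEGF in control cells (1.73), and FGF12 was lower in both (−1.57 and −1.58). Of all genes, 7.22% were called higher and 6.38% lower with estradiol in HOXB13 cells, and 8.65% and 6.72% in control cells. None of the genes on these lists was called between HOXB13 and control cells in either treatment or in the interaction without the block.

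The median log2 fold change of each of these lists stands beside −0.01 for all genes in both kinds of cell. It was −0.16 in HOXB13 cells and −0.17 in control cells for the other brakes, 0.03 and 0.00 for the core of the cascade, and −0.07 and 0.01 for the p38 and JNK genes. For the output of ERK it was 0.33 and 0.13, for the receptors −0.26 and −0.11, and for the ligands 0.47 and −0.06. With the replicate block, which called 15.5% of all genes higher and 15% lower in HOXB13 cells, the counts higher and lower there became 0 and 3 of 15 brakes, 1 and 2 of 21 core genes, 1 and 1 of 11 p38 and JNK genes, 7 and 3 of 18 output genes and 2 and 5 of 11 receptors. In control cells, where the block called 17.5% of all genes higher and 16.5% lower, they became 2 and 5 of 15 brakes, 3 and 2 of 21 core genes, 2 and 2 of 11 p38 and JNK genes, 4 and 5 of 18 output genes, 3 and 5 of 11 receptors and 3 and 2 of 8 ligands. With lists this short, these counts and those without the block show only which genes were called. Between HOXB13 and control cells the block called the adaptor gene FRS2 higher and IER3 lower with estradiol (log2 fold changes 0.35 and −0.44, edgeR's adjusted p 0.0488 and 0.0152), and FGFR4 lower with vehicle (−0.48, adjusted p 0.00284).

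**Figure D5:**
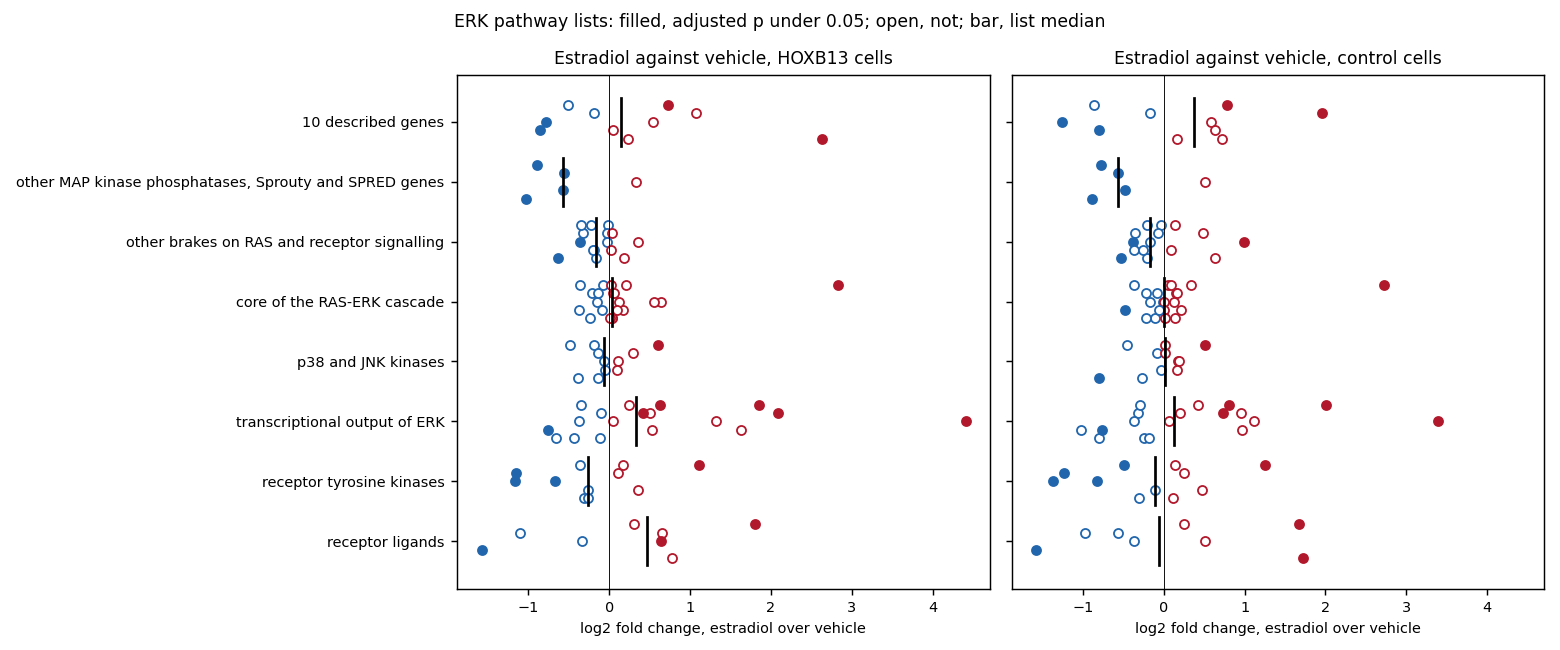
Log2 fold change of estradiol over vehicle for the 10 genes and the 7 other pathway lists, in HOXB13 cells (left) and control cells (right), with a circle for each tested gene, red above 0 and blue below, filled where the adjusted p is under 0.05, and a bar at the list median. The further phosphatase and Sprouty genes lie at a median of −0.57 in both panels, while EGR3 at 4.41 is the farthest point to the right among HOXB13 cells.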

How the data were processed

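The values used are raw counts as deposited by the authors: whole numbers by symbol in 12 columns, summing to between 17679824 and 21385996. Per the submitters' processing notes, FastQC, STAR, Picard and HTSeq and the builds GRCh37 and hg19 were used, and versions, annotation release and strand setting are not stated. Every column was mapped to a sample by its label. The table lists 55882 symbols, and 30284 of these were at 0 throughout. The rest were filtered by group with filterByExpr (minimum count 10, minimum total 15), which left 14799, and scaled by TMM factors of 0.974 to 1.04.

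Tests used edgeR 4.0.16 (R 4.3.3): all 4 groups entered a single fit with a mean each, contrasts were tested by robust quasi-likelihood F, and p-values were adjusted by Benjamini and Hochberg's method across the whole filtered table, with a threshold of 0.05. SE is the log2 fold change divided by the root of F, and levels are CPM (mean ± SD) or log2 CPM with a prior count of 2. The exact interval of a ratio of summed counts covers counting error only. With 3 libraries a group, exact permutation would reach a two-sided p of 0.1 at best and was not run. Since separate cultures are not stated, the p-values describe variation among the libraries at hand, part of which may be technical. The fit was also run on simulated counts. These held no shift of the libraries numbered 2, so that run cannot say how the fit handles such a shift.

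Equally numbered libraries deviated together from their group means (correlations 0.123 to 0.457 in the 4 comparisons of 2 groups, all over 0.1), so a blocked fit, with that number as a term, is quoted where a call changes. For the difference between responses the lowest of 18 correlations was 0.0926, and it was not treated as paired. The check cannot tell matched libraries from a shift of those numbered 2 alone.

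The 10 genes and the 7 pathway lists were chosen with earlier results of these data known, and the lists support nothing on their own. List genes are named where they passed the test in a comparison, though not every such gene is reported here, and genes with like patterns are the 3 with the smallest root mean square difference, for the 3 members with the widest spread of group means. Exon lengths and chromosomes are from GENCODE on GRCh38. Start-site windows are from RefSeq without those on chromosome 8, and 8 of 10 members were used, not DUSP4 or DUSP5. Neither source is the annotation used for counting. The alternatives were DESeq2 1.42.0, limma-voom 3.58.1, other scalings and filters, fits to fewer libraries and the block.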

Additional observations from a re-analysis of the deposited data

How the results depend on the processing

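The 10 genes' log2 fold changes gave 1033 values under the alternatives, of which 957 kept direction and side of the threshold, 12 lost a call, 14 gained one and 50 changed sign, the last between −0.28 and 0.28 and none past the threshold before or after. The 12 lost calls were SPRY1 in HOXB13 cells with limma-voom (adjusted p 0.0549), with no scaling (0.0589) and in 9 fits without 1 library, and DUSP2 in control cells without control vehicle library 1. DUSP4 gained a call with no filter in both kinds of cell (adjusted p 0.0104 in HOXB13 cells and 0.00554 in control cells), as did DUSP1 between HOXB13 and control cells in vehicle (0.0016), the 1 member called there with no filter. DUSP1 in control cells gained one with DESeq2 (0.0238) and no filter (3.5e-05). SPRY4 was left untested by the stricter filter. With only the groups compared it was also untested for estradiol in control cells and for HOXB13 against control cells in vehicle. Over all genes, estradiol calls numbered 2012 in HOXB13 cells and 2275 in control cells, 4519 and 5032 with the replicate block, and 1228 to 3285 and 1478 to 3567 with libraries left out, the highest being without all 4 numbered 2. HOXB13 against control cells gave 2 calls with estradiol, 20 with DESeq2, 5 with limma-voom, 30 with no filter, 58 with the replicate block and 2 to 21 with libraries left out. With vehicle it gave 3, and 20, 6, 62 and 60 under those settings, 1 when only the groups compared were fitted and 1 to 37 with libraries left out. The difference between responses gave 0, 4 with no filter and 0 to 1 with libraries left out. With no scaling, the difference between responses was 0.0022 for DUSP4 and 0.019 for SPRED2, both negative before. The remaining sign changes came with libraries left out. With estradiol against vehicle in HOXB13 cells the ranges were −0.018 to 0.45 for DUSP6 and −0.24 to 0.50 for SPRY2. Between HOXB13 and control cells with estradiol they were −0.20 to 0.062 for DUSP2, −0.068 to 0.53 for DUSP4, −0.020 to 0.20 for DUSP5, −0.014 to 0.34 for SPRY1, −0.24 to 0.24 for SPRY2, −0.046 to 0.70 for SPRY4 and −0.049 to 0.11 for SPRED2. With vehicle they were −0.28 to 1.22 for DUSP2, −0.067 to 0.65 for DUSP4, −0.027 to 0.44 for DUSP6 and −0.012 to 0.11 for SPRED2. In the difference between responses they were −0.13 to 0.62 for DUSP1, −1.29 to 0.22 for DUSP2, −0.44 to 0.28 for DUSP4, −0.15 to 0.067 for DUSP5, −0.19 to 0.28 for DUSP6, −0.22 to 0.13 for SPRED1 and −0.094 to 0.069 for SPRED2. The cause of these changes was not tested. Beyond DUSP1 in both kinds of cell and DUSP2 in HOXB13 cells, the replicate block changed no member's call. Depth limits SPRY4 most, at 2 to 3 counts per library in HOXB13 cells with vehicle.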
